A study of Mus musculus with 9 samples.

Results

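Stefins and cystatins are protein inhibitors of the papain-like cysteine proteases, most of them lysosomal cathepsins, and the 5 genes described here are Stfa3, Stfa2l1, Cstb, Cst3 and Cst7. They are read by all 6 probe sets that the platform annotation lists with 1 of these symbols alone, of 45101 probe sets on the array and 34958 with a single gene symbol: 2 for Cstb and 1 for each other gene. The genes were chosen by their values on these arrays, in view of the differences between groups in all 3 comparisons. Their levels and differences are therefore given as a description, with standard errors and no test. Of the 45101 probe sets, Stfa3 had the absolute difference of rank 2 and Stfa2l1 that of rank 5, in both comparisons with Hoxa9-Meis1 leukemias.

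The arrays came from mouse bone marrow on a mixed C57/BL6 and 129 background, harvested fresh from leukemic mice. In 3 samples MLL-AF9 leukemia cells homozygous for the floxed Af10 allele had received the MSCV-IRES-tdTomato vector with Cre recombinase, which gave Af10 deleted leukemias in secondary recipients. In 3 samples the same kind of floxed MLL-AF9 cells had received that vector without Cre (MIT), which gave Af10 floxed leukemias in secondary recipients. Both of these groups were sorted for tdTomato. The last 3 samples were primary leukemias transduced with Hoxa9 and Meis1, which were not sorted. Mouse ages and the number of primary leukemias behind each group were not given in the sources used here. Oncogene, transplant generation, vector and sorting therefore cannot be told apart in comparisons with Hoxa9-Meis1 leukemias, nor can loss of Af10 and presence of Cre between the MLL-AF9 groups.

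Levels are log2(RMA intensity + 1), and a value after ± is an SD (n = 3 arrays per group). Median intensity per array lay between 146 and 156. As a gauge of background, Kdm5d, Eif2s3y and Uty, genes of the Y chromosome, were read by 9 probe sets at 2.97 to 4.71, while Xist was high on every array. All 4 probe sets of Mllt10, the gene of Af10, were lower in deleted than in floxed leukemias, by 0.76 to 1.05, with limma adjusted p of 0.00105 to 0.0328. One Hoxa9 probe set averaged 9.15 in deleted, 12.16 in floxed and 13.74 in Hoxa9-Meis1 leukemias. The other Hoxa9 probe set, at 4.71, and all 3 Meis1 probe sets, at 4.75 to 6.87, were lower in Hoxa9-Meis1 leukemias than in either MLL-AF9 group, and whether they lie within the transduced sequences was not tested.

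Stefins are the small intracellular branch of the cystatin superfamily. Mice carry a cluster of near-identical stefin A genes on chromosome 16, to which Stfa3 and Stfa2l1 belong and whose products are known from neutrophils and their precursors. Cstb encodes stefin B, a widely expressed cytosolic and nuclear inhibitor whose loss in humans causes a progressive myoclonus epilepsy. Cst3 encodes cystatin C, a secreted inhibitor made by most cells and abundant in macrophages and dendritic cells. Cst7 encodes cystatin F, a leukocyte inhibitor that is carried to endosomes and lysosomes and acts there on cathepsin C and related enzymes.

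RefSeq (GRCm38.p6) places 12 stefin-type genes side by side on mouse chromosome 16, with Stfa2l1 near one end and Stfa3 at the other. The promoters of the 2 member genes are shown because these genes carried the largest differences, with that of Csta1, the gene next to Stfa2l1, whose probe set stayed near background on most arrays. Each runs from 250 bases before to 50 after the annotated start, read 5′ to 3′ on the gene's strand, and lies at chr16:36455343-36455642 (minus strand) for Stfa3, chr16:36156561-36156860 (plus strand) for Stfa2l1 and chr16:36131140-36131439 (minus strand) for Csta1. Capitals mark the longest run shared with Stfa3, and in Stfa3 the run shared with Stfa2l1.
Stfa3: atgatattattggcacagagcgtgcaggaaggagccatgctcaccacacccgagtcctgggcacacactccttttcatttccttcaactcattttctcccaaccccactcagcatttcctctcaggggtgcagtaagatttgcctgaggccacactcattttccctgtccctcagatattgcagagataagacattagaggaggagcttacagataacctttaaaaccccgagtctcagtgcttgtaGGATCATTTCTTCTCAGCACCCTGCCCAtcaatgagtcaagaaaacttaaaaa
Stfa2l1: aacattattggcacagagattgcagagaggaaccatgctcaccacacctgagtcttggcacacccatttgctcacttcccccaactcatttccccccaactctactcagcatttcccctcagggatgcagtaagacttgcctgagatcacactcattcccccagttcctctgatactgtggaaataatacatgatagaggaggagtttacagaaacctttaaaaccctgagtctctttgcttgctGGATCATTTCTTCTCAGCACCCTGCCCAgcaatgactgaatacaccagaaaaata
Csta1: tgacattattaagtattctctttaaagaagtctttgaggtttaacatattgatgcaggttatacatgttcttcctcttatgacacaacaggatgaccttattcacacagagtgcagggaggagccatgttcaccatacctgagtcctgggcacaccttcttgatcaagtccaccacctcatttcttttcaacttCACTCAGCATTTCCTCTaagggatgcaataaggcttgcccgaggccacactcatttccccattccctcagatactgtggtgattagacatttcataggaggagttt

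The Stfa3 and Stfa2l1 promoters were identical at 246 of 296 aligned bases (83.1%). Their longest shared run, of 28 bases, spanned positions -3 to 25 around the start of Stfa3 and -5 to 23 around that of Stfa2l1. With Csta1 the identity was 169 of 208 aligned bases (81.3%), and the longest run was 17 bases, from -145 to -129 in Stfa3. Across the 10 other cluster genes with a promoter entry, identity to Stfa3 lay between 51.3% and 87.0%. The Cst3 and Cst7 promoters were identical to it at 41.8% and 55.6% of aligned bases.

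The letters TTTAAA, similar to the TATA box of core promoters, stood at -31 in Stfa3 and -33 in Stfa2l1. They were present anywhere in the window in 10 of 11 cluster promoters, against 13.2% of 32851 RefSeq promoters of the same length. In Stfa1, Stfa2, Cstdc4 and Cstdc3 they stood at -30, -29, -29 and -24, but at -9 in Cstdc5, -59 in Gm7260, -77 in Csta3 and -230 in Csta1. As the cluster holds near-identical genes, the 11 promoters are not independent of one another. GAGGAA, the purine core bound by factors of the PU.1 type, had a match on either strand in 8 of the 11 and in 28.3% of all. TTGCNNAA (C/EBP) matched in 3 of the 11 and 10.8% of all, TGACAG (MEIS) in 1 and 19.2%, and TGATTNAT (HOX-PBX) in 1 and 3.22%, none of them in the Stfa3 or Stfa2l1 window. These motifs do not contain one another, and matches are described as letters only.

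Stfa3 was near the top of the intensity range in both MLL-AF9 groups and near background in Hoxa9-Meis1 leukemias. Its levels were 13.51, 14.02 and 13.37 in deleted replicates 4, 5 and 6, 12.91, 12.24 and 13.15 in floxed replicates 4, 5 and 6, and 4.95, 4.84 and 6.37 in Hoxa9-Meis1 replicates 1, 2 and 3. In Hoxa9-Meis1 leukemias these values are linear intensities of 29.9, 27.6 and 81.6. Every MLL-AF9 array lay far above every Hoxa9-Meis1 array, and the deleted arrays lay above the floxed ones without overlap. The difference was 8.25 for deleted minus Hoxa9-Meis1 (SE 0.41, 304-fold), 7.38 for floxed minus Hoxa9-Meis1 (SE 0.41, 167-fold) and 0.87 for deleted minus floxed (SE 0.41, 1.82-fold). In bulk marrow, fewer cells of a type and less RNA per cell cannot be told apart.

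Stfa2l1, a second stefin A gene, had the same high and low groups but did not separate the MLL-AF9 groups. Deleted replicates 4, 5 and 6 had 13.49, 14.03 and 13.19, floxed replicates 4, 5 and 6 had 13.80, 12.79 and 13.88, and Hoxa9-Meis1 replicates 1, 2 and 3 had 5.43, 5.26 and 9.55. The deleted and floxed ranges overlapped, and the difference between their means was 0.08 (SE 0.98). This SE comes from the fit over all 3 groups and is widened by the Hoxa9-Meis1 arrays. The SD was 0.42 in deleted, 0.60 in floxed and 2.43 in Hoxa9-Meis1 leukemias. Hoxa9-Meis1 replicate 3 stood apart at a linear intensity of 749, against 42.1 and 37.2 on the other 2 arrays of that group. The difference was 6.82 for deleted minus Hoxa9-Meis1 (SE 0.98, 113-fold) and 6.75 for floxed minus Hoxa9-Meis1 (SE 0.98, 107-fold). Without that 1 array these differences were 8.23 and 8.15, and those of Stfa3 were 8.74 and 7.87. For Stfa2l1, deleted minus Hoxa9-Meis1 was 6.08 without Hoxa9-Meis1 replicate 2 and 6.17 without replicate 1, and floxed minus Hoxa9-Meis1 was 6.0 without replicate 2 and 6.09 without replicate 1.

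**Figure D1:**
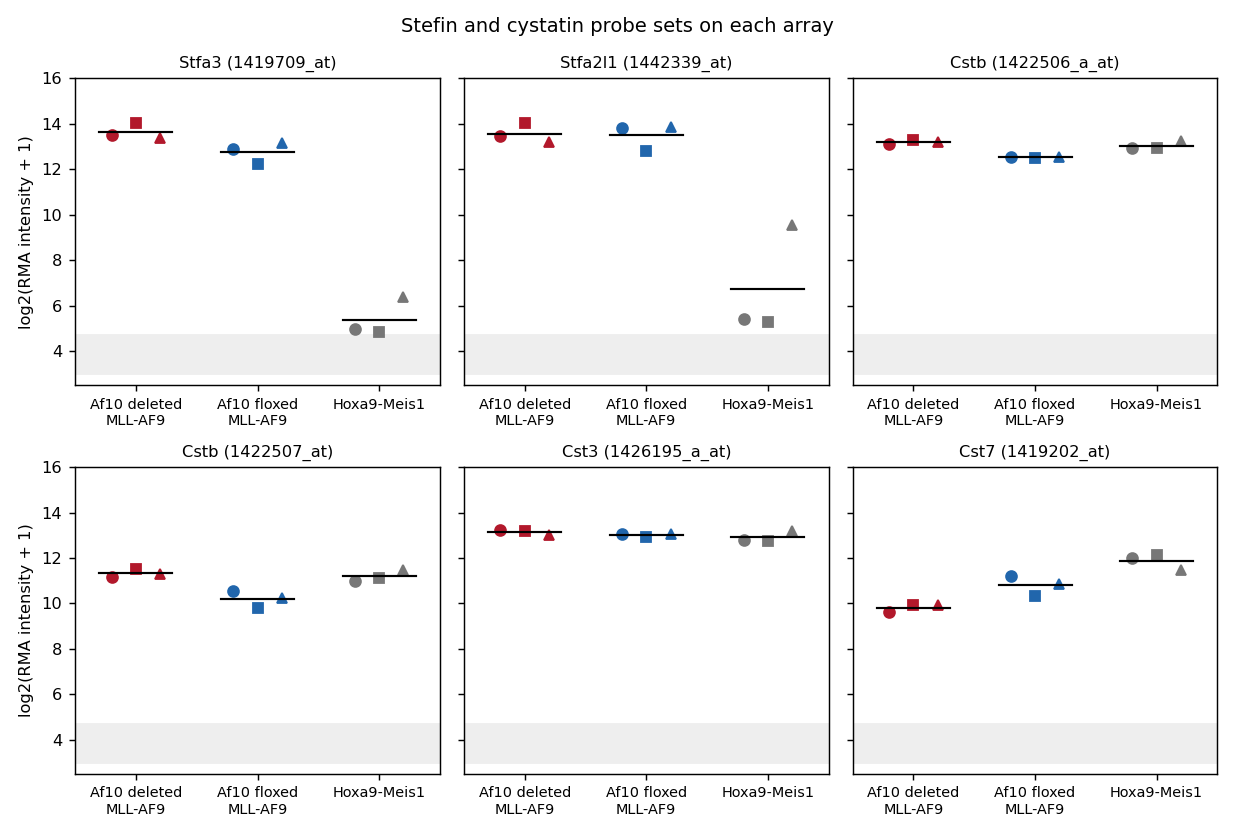
Level of each of the 6 probe sets, as log2(RMA intensity + 1), on each of the 9 arrays, with circles, squares and triangles for replicates 4, 5 and 6 of the MLL-AF9 groups and 1, 2 and 3 of Hoxa9-Meis1 leukemias, horizontal lines for group means and grey bands for the background gauge (2.97 to 4.71). Stfa3 and Stfa2l1 lie at 12.24 or above on all MLL-AF9 arrays and at 9.55 or below on all Hoxa9-Meis1 arrays.

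Within the MLL-AF9 groups the same arrays were extreme for both stefin A genes, but their ratio was not the same in every group. Among deleted arrays both were highest in replicate 5, and among floxed arrays both were lowest in replicate 5. The log2 ratio of Stfa3 to Stfa2l1 within an array was 0.02, -0.01 and 0.17 in deleted replicates 4, 5 and 6, and -0.89, -0.56 and -0.72 in floxed replicates 4, 5 and 6. It was -0.48, -0.42 and -3.18 in Hoxa9-Meis1 replicates 1, 2 and 3. The deleted and floxed ratios did not overlap, but how often ratios of other probe sets do so was not measured. Of single probe sets, 24.8% did not overlap between these groups. Whether the 2 probe sets changed unequally was not tested. Near-identical copies can bind to either probe set, and how much each gene adds to each signal was not tested.

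Of 3 further probe sets of the cluster, 1 had levels like those of Stfa2l1. That probe set, listed with 2 genes, Cstdc5 and Stfa1, is not assigned to either, and its levels were 13.91 to 14.28 in deleted, 13.76 to 14.31 in floxed and 7.09, 6.70 and 9.28 in Hoxa9-Meis1 leukemias. Like Stfa2l1 it was highest in replicate 3 among Hoxa9-Meis1 arrays and did not separate the MLL-AF9 groups, with a difference of -0.04 for deleted minus floxed (SE 0.56). That SE too is widened by the Hoxa9-Meis1 arrays, with an SD of 1.39, against 0.19 in deleted and 0.30 in floxed leukemias. A probe set listed with both Cstdc4 and Csta2 had no such difference: it had 10.27 to 10.51 in deleted, 9.73 to 10.38 in floxed and 9.82 to 10.27 in Hoxa9-Meis1 leukemias. Csta1 had 4.24, 5.53 and 4.24 in deleted, 4.71, 3.95 and 4.26 in floxed and 3.65, 4.06 and 3.91 in Hoxa9-Meis1 leukemias, within the background range on every array but deleted replicate 5. Besides Csta1 and the 2 members, no probe set was listed with 1 of the other 9 cluster genes alone.

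Of the 8 flanking genes, 0 were called for deleted versus floxed, 1 for floxed versus Hoxa9-Meis1 and 1 for deleted versus Hoxa9-Meis1 leukemias, against 6.39%, 8.66% and 14.9% of all genes, so these counts are near the background. Of the 4 nearest genes with a probe set on each side, Kpna1, Wdr5b, Fam162a, Ccdc58, Casr, Cd86 and Ildr1 did not pass limma in any of the 3 comparisons. The other one, the peptide transporter gene Slc15a2, fell in both comparisons with Hoxa9-Meis1 leukemias: it averaged 5.56 ± 1.87 in deleted and 9.09 ± 0.22 in Hoxa9-Meis1 leukemias (difference -3.52, SE 0.73, limma adjusted p = 0.013). In floxed leukemias it averaged 4.67 ± 0.09, a difference from Hoxa9-Meis1 leukemias of -4.42 (limma adjusted p = 0.00797).

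**Figure D2:**
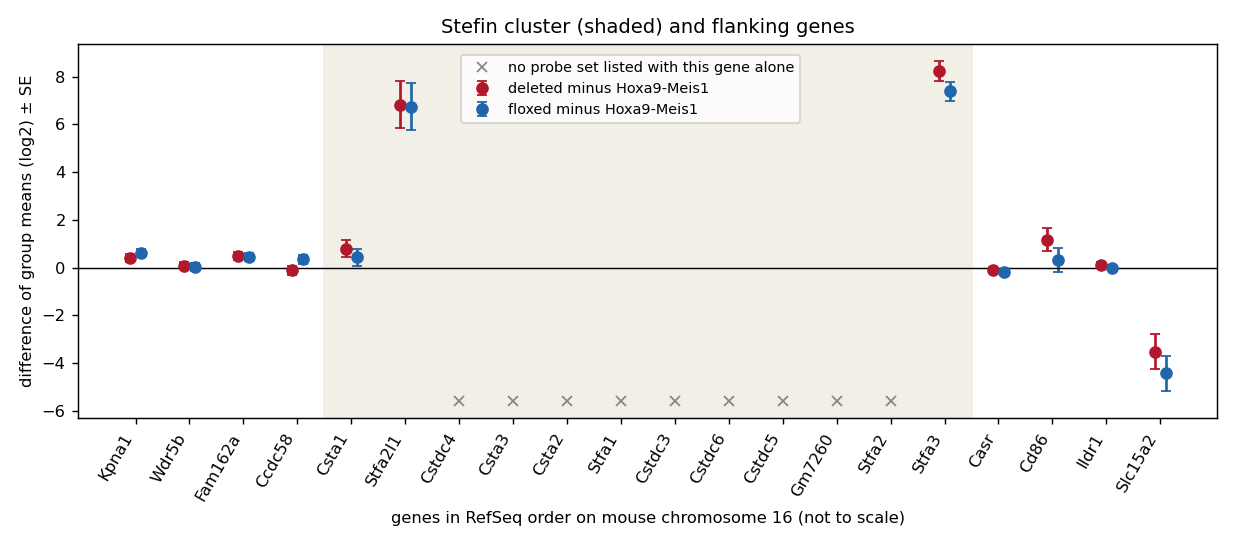
Difference of group means (log2, bars are SE) from Hoxa9-Meis1 leukemias for deleted (red) and floxed (blue) leukemias, for genes in their order along chromosome 16, with the 12-gene stefin cluster shaded and grey crosses for genes with no probe set of their own. Stfa2l1 and Stfa3 lie between 6.75 and 8.25, Csta1 at 0.80 for deleted and 0.43 for floxed leukemias, and Slc15a2 at -3.52 for deleted and -4.42 for floxed leukemias.

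Cstb, encoding stefin B, was lowest in floxed leukemias by both of its probe sets. The brighter one had 13.12, 13.29 and 13.20 in deleted, 12.56, 12.50 and 12.53 in floxed, and 12.93, 12.94 and 13.23 in Hoxa9-Meis1 leukemias. Floxed arrays lay below all others, while deleted and Hoxa9-Meis1 arrays overlapped. The difference was 0.67 for deleted minus floxed (SE 0.12, 1.59-fold), -0.50 for floxed minus Hoxa9-Meis1 (SE 0.12) and 0.17 for deleted minus Hoxa9-Meis1 (SE 0.12). The dimmer one had 11.18, 11.50 and 11.31 in deleted, 10.55, 9.82 and 10.23 in floxed, and 11.01, 11.10 and 11.46 in Hoxa9-Meis1 leukemias. Its order of groups was the same, with differences of 1.13, -0.99 and 0.14 in those comparisons (SE 0.20 each). Its lowest array was floxed replicate 5, on which the brighter probe set was also lowest, at 12.50. The median log2 ratio of the brighter to the dimmer probe set was 1.89 in deleted, 2.30 in floxed and 1.84 in Hoxa9-Meis1 leukemias.

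Cst3, encoding the secreted inhibitor cystatin C, was bright and nearly level over all 9 arrays. It had 13.24, 13.18 and 13.00 in deleted, 13.03, 12.91 and 13.04 in floxed, and 12.79, 12.75 and 13.18 in Hoxa9-Meis1 leukemias. The 3 groups overlapped. The difference was 0.14 for deleted minus floxed, 0.09 for floxed minus Hoxa9-Meis1 and 0.23 for deleted minus Hoxa9-Meis1, each with an SE of 0.14, and neighbouring groups in the order of their means lay within the spread of their arrays.

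Cst7, encoding cystatin F, ran opposite to Stfa3: it was lowest in deleted and highest in Hoxa9-Meis1 leukemias. Its levels were 9.62, 9.92 and 9.91 in deleted, 11.22, 10.34 and 10.87 in floxed, and 12.00, 12.12 and 11.45 in Hoxa9-Meis1 leukemias. No pair of groups overlapped, with floxed arrays between the others. The difference was -0.99 for deleted minus floxed (SE 0.25, 1.99-fold), -1.04 for floxed minus Hoxa9-Meis1 (SE 0.25, 2.06-fold) and -2.04 for deleted minus Hoxa9-Meis1 (SE 0.25, 4.11-fold). Floxed replicate 5 and Hoxa9-Meis1 replicate 3 were the lowest arrays of their groups.

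**Figure D3:**
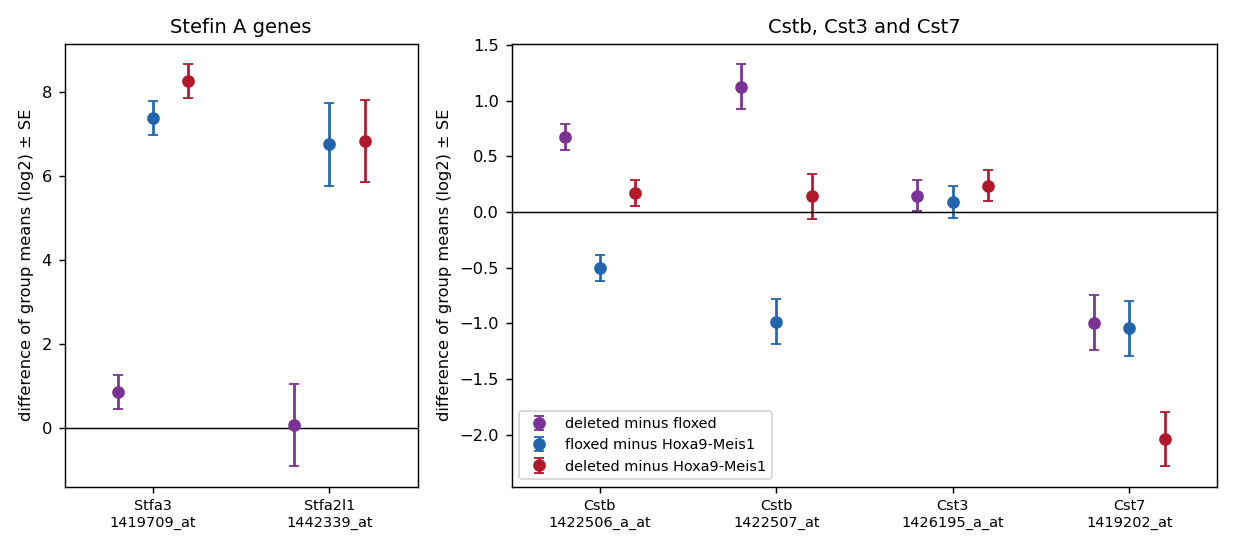
Difference of group means (log2, bars are SE) for each member probe set in the 3 comparisons, on a wide scale for Stfa3 and Stfa2l1 and a narrow one for Cstb, Cst3 and Cst7. The Cstb probe sets lie above 0 for deleted minus floxed (0.67 and 1.13) and below 0 for floxed minus Hoxa9-Meis1, while Cst7 lies below 0 in all 3 comparisons.

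Counts of members past a limma adjusted p of 0.05 over all probe sets are given here beside their background, and nothing is read from them. For deleted versus floxed leukemias 2 of 6 probe sets passed as higher, both of Cstb, against 2.40% of all probe sets, and 1 as lower, Cst7, against 3.76%. For floxed versus Hoxa9-Meis1 leukemias 2 passed as higher, Stfa3 and Stfa2l1, against 4.94%, and 3 as lower, both of Cstb and Cst7, against 4.07%. For deleted versus Hoxa9-Meis1 leukemias 2 passed as higher, Stfa3 and Stfa2l1, against 7.19%, and 1 as lower, Cst7, against 7.82%. The groups did not overlap for 4, 5 and 3 of the 6 probe sets in these comparisons in turn, against 24.8%, 28.1% and 34.2% of all probe sets. The comparisons share arrays with each other.

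Late neutrophil markers were measured beside the stefins, since stefin A transcripts are known from those cells. The 13 measured markers of 15 listed, among them S100a8, S100a9, Camp, Ltf and Ngp, had a summed linear intensity of 109872 to 140394 in deleted, 76988 to 125027 in floxed and 76871 to 119643 in Hoxa9-Meis1 leukemias. The floxed and Hoxa9-Meis1 ranges overlapped over most of their length. A linear sum is weighted to the brightest markers, such as S100a8, S100a9 and Camp, whose group means were 14.02 to 14.55. Dimmer markers add little to it, such as Mmp8, which averaged 9.44 ± 0.20 in floxed and 7.60 ± 2.74 in Hoxa9-Meis1 leukemias. The part of neutrophils in the stefin levels was not tested. Of the 13 markers, Cxcr2 was called higher for deleted versus floxed leukemias, and Csf3r lower for floxed versus Hoxa9-Meis1 leukemias. Cxcr2 and Lcn2 were called higher for deleted versus Hoxa9-Meis1 leukemias. Among all genes 2.92% were called higher for deleted versus floxed and 3.24% lower for floxed versus Hoxa9-Meis1 leukemias. For deleted versus Hoxa9-Meis1 leukemias 8.90% of all genes were called higher. Floxed replicate 5 had the lowest sum of the MLL-AF9 arrays and the lowest Stfa3 and Stfa2l1, and Hoxa9-Meis1 replicate 3 had the highest sum and the highest stefin levels of its group. Among deleted arrays replicate 4 had the highest sum, but replicate 5 had the highest Stfa3 and Stfa2l1. Floxed replicate 5 and Hoxa9-Meis1 replicate 2 had sums of 76988 and 76871, with Stfa3 at 12.24 and 4.84.

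**Figure D4:**
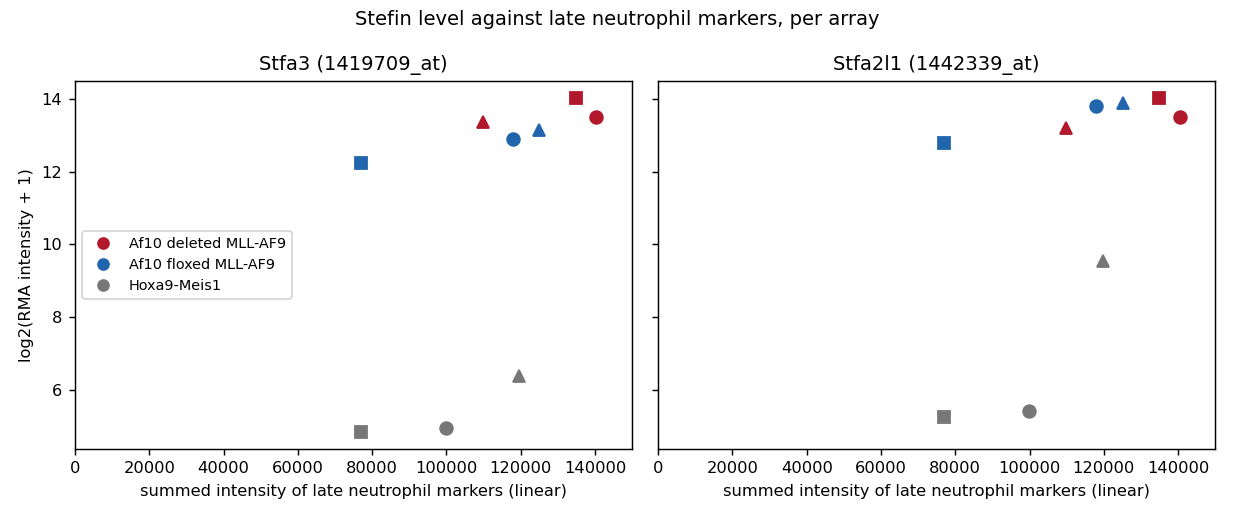
Level of Stfa3 (left) and Stfa2l1 (right), as log2(RMA intensity + 1), against the summed linear intensity of 13 late neutrophil markers, 1 point per array, with marker shapes for replicates as in the plot of member levels. Marker sums are 109872 to 140394 in deleted, 76988 to 125027 in floxed and 76871 to 119643 in Hoxa9-Meis1 leukemias. Stfa3 levels are 13.37 to 14.02, 12.24 to 13.15 and 4.84 to 6.37 in turn.

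Markers of other cells moved in part with the groups. The summed intensity of 7 mast cell, basophil and eosinophil markers was 2217 to 3035 in deleted, 2372 to 3249 in floxed and 5157 to 16225 in Hoxa9-Meis1 leukemias, where replicate 3 was the lowest. The 11 monocyte, macrophage and dendritic cell markers summed to 5784 to 12862 in deleted, 9203 to 14343 in floxed and 12516 to 21730 in Hoxa9-Meis1 leukemias, with the highest value in replicate 3. For the 11 T and NK cell markers, cells in which Cst7 is also known, the sums overlapped: 2780 to 4929 in deleted, 3307 to 6121 in floxed and 3704 to 6635 in Hoxa9-Meis1 leukemias. In deleted versus floxed leukemias 4 of these 11 rose, against 2.92% of all genes, and 0 fell, against 3.46%. They were Cd3e by 0.93, Gzma by 1.56, Klrd1 by 1.13 and Il2rb by 1.56. Nkg7 averaged 10.12 in deleted and 11.46 in floxed leukemias (difference -1.34, SE 0.60, limma adjusted p = 0.235), the only one of the 11 with a difference below 0. For deleted versus Hoxa9-Meis1 leukemias 4 of the 11 rose and 1 fell, against 8.90% and 6.03% of all genes. For floxed versus Hoxa9-Meis1 leukemias 0 rose and 1 fell, against 5.42% and 3.24%. B cell markers summed to 1388 to 1528 in deleted, 2317 to 3485 in floxed and 1191 to 2481 in Hoxa9-Meis1 leukemias. The lower sum in deleted than in floxed leukemias was not shared by the whole list. Of the 7 markers, 4 lay above 0 and 3 below, with a median of 0.20. For that comparison 1 was called lower, against 3.46% of all genes, and 0 higher, against 2.92%. The 10 myeloid leukemia cell markers, which include Mpo, Kit, Hoxa9 and Meis1, summed to 33504 to 37452 in deleted and 33906 to 37366 in floxed leukemias. In Hoxa9-Meis1 leukemias they summed to 47831 to 50738, without overlap. This sum includes Hoxa9, which was transduced into that group. Its brightest probe set averaged 9.15 in deleted, 12.16 in floxed and 13.74 in Hoxa9-Meis1 leukemias. From the sum alone the gap therefore cannot be read as a shift of the whole list. Of the 10, 5 lay above 0 and 5 below for deleted versus Hoxa9-Meis1 leukemias. For floxed versus Hoxa9-Meis1 leukemias 2 lay above and 8 below. The 5 erythroid markers summed to 463 to 554 in deleted, 465 to 512 in floxed and 430 to 454 in Hoxa9-Meis1 leukemias, the last group lower by a narrow margin. By limma 0 of the 5 had an unadjusted p under 0.05 for floxed versus Hoxa9-Meis1 leukemias, against 23.5% of all genes. For deleted versus Hoxa9-Meis1 leukemias 1 did, against 28.1%. The 6 megakaryocyte sums overlapped, at 855 to 1056 in deleted, 692 to 1016 in floxed and 693 to 1025 in Hoxa9-Meis1 leukemias. The part of these cells in the stefin and cystatin levels was not tested. No marker was at 0, which these intensities do not reach.

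The closest profiles differed by member. Likeness was the root-mean-square distance between log2 profiles over the 9 arrays, each centred on its own mean, over genes represented by their brightest probe set. Nearest to Stfa3, whose own profile had a size of 3.73 on this scale, were Penk (0.87), Stfa2l1 (0.95) and Tcf24 (1.09). Penk, the proenkephalin gene, averaged 13.07 ± 0.25 in deleted, 11.50 ± 0.43 in floxed and 5.86 ± 0.08 in Hoxa9-Meis1 leukemias, so unlike Stfa2l1 it separated all groups. Nearest to Stfa2l1 were Stfa3 (0.95), Penk (1.37) and Lgr4 (1.58), the last a receptor gene for R-spondins. Cst7, with a profile size of 0.88, was nearest to the prolyl hydroxylase gene Egln3 (0.29), Kremen1 (0.30) and the deacetylase gene Hdac7 (0.31). Cstb was nearest to Mefv (0.10), Gm5142 (0.12) and 2210016F16Rik (0.12), where Gm5142 was dim at 3.94 to 4.49. Cst3, whose profile size was only 0.16, was nearest to Myo1h (0.03), Rab7 (0.07) and Xpnpep1 (0.07).

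Of the further stefin and cystatin superfamily genes, 13 of 26 listed had a probe set of their own, and 0 passed limma in any of the 3 comparisons. Among all genes 6.39% passed for deleted versus floxed, 8.66% for floxed versus Hoxa9-Meis1 and 14.9% for deleted versus Hoxa9-Meis1 leukemias, so that few calls or none would be a count near the background in a list of this size. In these comparisons 0, 1 and 1 of the 13 had an unadjusted p under 0.05, against 21.6%, 23.5% and 28.1% of all genes. Group means of these genes, among them Cst6, Cst9, Cst10 to Cst13, Fetub, Hrg, Ahsg and Kng1, lay between 3.85 and 7.50. Their median differences were 0.08, -0.05 and 0.05 in these comparisons, against 0.06, -0.01 and 0.05 over all 18194 genes. One of the 13, Cstad, is a T cell activation-dependent gene and not a cystatin, and without it 0 of 12 passed, with medians of 0.08, -0.05 and 0.07. Fetub, a fetuin gene of the liver, averaged 6.16 in deleted, 5.99 in floxed and 6.11 in Hoxa9-Meis1 leukemias.

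The lists of proteases and other inhibitors below were drawn up with results of these data known. Of 11 papain-like cathepsins and legumain, 1 fell and 0 rose in deleted versus floxed leukemias, where 3.46% of all 18194 genes fell and 2.92% rose (6.39% in all). Differences were below 0 for 9 of the 11, and the median was -0.59, against 0.06 over all genes. An unadjusted p under 0.05 was found for 6 of the 11, of which Ctsw was higher and the others lower in deleted leukemias, against 21.6% of all genes. Ctsl, encoding the lysosomal protease cathepsin L, had linear intensities of 600, 279 and 260 in deleted and 2231, 2205 and 1007 in floxed leukemias, with no overlap. It averaged 8.46 ± 0.67 in deleted and 10.74 ± 0.66 in floxed leukemias (difference -2.27, SE 0.51, limma adjusted p = 0.0338). Its other probe set differed by -0.98 (limma adjusted p = 0.437). The call of Ctsl was lost when any 1 of the 6 MLL-AF9 arrays but deleted replicate 4 or floxed replicate 6 was left out, and also without Hoxa9-Meis1 replicate 1, with limma adjusted p of up to 0.127.

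The other 10 did not pass. Ctsw, a protease of cytotoxic lymphocytes, averaged 6.39 in deleted and 5.86 in floxed leukemias (difference 0.53, SE 0.14, limma adjusted p = 0.065), and Ctsk, encoding cathepsin K, averaged 6.01 in deleted and 5.73 in floxed leukemias (difference 0.28), both without overlap. Ctsc, encoding the protease that activates granule serine proteases and is inhibited by cystatin F, averaged 9.16 in deleted and 10.46 in floxed leukemias (difference -1.31, SE 0.54, limma adjusted p = 0.206). Ctss, encoding cathepsin S, which trims the MHC class II invariant chain, averaged 10.91 in deleted and 12.08 in floxed leukemias (difference -1.17, SE 0.54, limma adjusted p = 0.249). Ctsc, Ctss and Ctsz (difference -0.29) did not overlap between the groups, while Ctsh (-0.62), Lgmn (-0.69), Ctso (-0.59), Ctsb (-0.12) and Ctsf (-0.02) did.

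In deleted versus Hoxa9-Meis1 leukemias 2 of the 11 fell and 1 rose, against 6.03% and 8.90% of all genes (14.9% in all). Ctsl averaged 8.46 in deleted and 10.43 in Hoxa9-Meis1 leukemias (difference -1.97, SE 0.51, limma adjusted p = 0.0321), and both of its probe sets passed. Ctsh, encoding an aminopeptidase, averaged 10.94 in deleted and 11.80 in Hoxa9-Meis1 leukemias (difference -0.86, SE 0.22, limma adjusted p = 0.0281), by 1 of its 2 probe sets. Neither passed without deleted replicate 6 or without Hoxa9-Meis1 replicate 3, and Ctsl did not without deleted replicate 5 or Hoxa9-Meis1 replicate 1, nor Ctsh without deleted replicate 4 or Hoxa9-Meis1 replicate 2. The highest limma adjusted p was 0.113 for Ctsl and 0.0795 for Ctsh. Ctsw averaged 6.39 in deleted and 5.64 in Hoxa9-Meis1 leukemias (difference 0.75, SE 0.14, limma adjusted p = 0.0085). For floxed versus Hoxa9-Meis1 leukemias 0 of the 11 passed limma by their brightest probe sets, 2 had an unadjusted p under 0.05, and the median was 0.05, against -0.01 over all genes. Some dimmer probe sets read otherwise. A dimmer Ctsb probe set passed as lower there (-1.38, limma adjusted p = 0.00967) and for deleted versus Hoxa9-Meis1 leukemias (-1.04, limma adjusted p = 0.0201), while the other Ctsb probe sets overlapped. A dimmer Ctsc probe set passed as lower for deleted versus Hoxa9-Meis1 leukemias (-1.70, limma adjusted p = 0.0334). The dimmer Ctsl probe set differed by -2.19 for floxed versus Hoxa9-Meis1 leukemias, without overlap (limma adjusted p = 0.0786).

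Among 6 proteases of other classes, by their brightest probe sets, 1 rose and 0 fell in deleted versus floxed leukemias, against 2.92% and 3.46% of all genes. In deleted versus Hoxa9-Meis1 leukemias 1 rose and 0 fell, against 8.90% and 6.03%. In floxed versus Hoxa9-Meis1 leukemias 0 rose and 0 fell, against 5.42% and 3.24%. The call was that of Ctse each time, and the neutrophil serine protease genes Ctsg, Elane and Prtn3 passed in no comparison. Ctse, encoding the aspartic protease cathepsin E, gave opposite readings: by its brighter probe set it averaged 12.18 in deleted and 11.36 in floxed leukemias (difference 0.82, limma adjusted p = 0.00387). By the other it averaged 9.60 in deleted and 11.30 in floxed leukemias (difference -1.70, limma adjusted p = 0.0123), so its direction between these groups is not settled. In Hoxa9-Meis1 leukemias that second probe set averaged 7.27 and the brighter one 11.77. For deleted versus Hoxa9-Meis1 leukemias both passed as higher (brighter 0.41, limma adjusted p = 0.0362, and second 2.32, limma adjusted p = 0.00128). The call of the brighter one was lost in 9 of 15 alternatives. For floxed versus Hoxa9-Meis1 leukemias the second passed as higher by 4.02 (limma adjusted p = 0.000178), while the brighter did not pass (-0.41, limma adjusted p = 0.054).

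**Figure D5:**
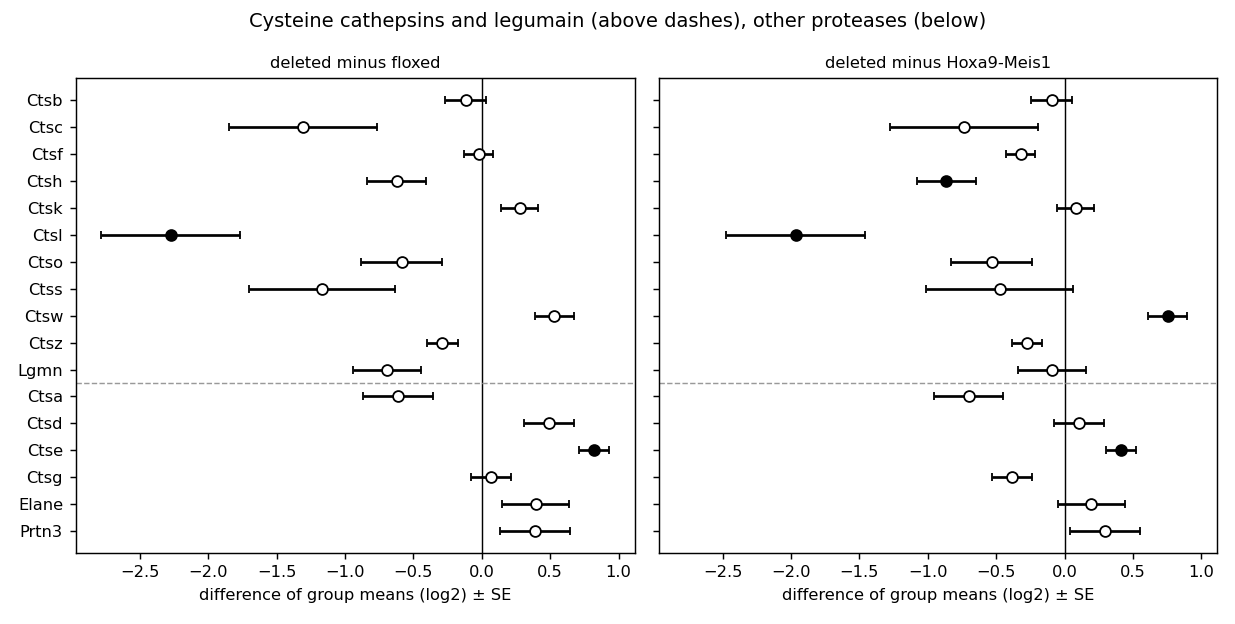
Difference of group means (log2, bars are SE) for 11 papain-like cathepsins and legumain above the dashed line and 6 proteases of other classes below it, by the brightest probe set of each gene, with filled points for genes past a limma adjusted p of 0.05. Ctsl lies at -2.27 for deleted minus floxed and -1.97 for deleted minus Hoxa9-Meis1, the lowest point of the 2 panels.

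Calls among inhibitors of other protease classes differed by comparison. Of 15 measured genes of 20 listed, 1 rose, against 2.92% of all genes, and 1 fell, against 3.46%, in deleted versus floxed leukemias. Slpi, an inhibitor of neutrophil elastase, averaged 13.10 ± 0.22 in deleted and 14.17 ± 0.11 in floxed leukemias (difference -1.07, SE 0.14, limma adjusted p = 0.00381). Timp2, an inhibitor of matrix metalloproteases, averaged 9.58 ± 0.31 in deleted and 7.86 ± 0.53 in floxed leukemias (difference 1.72, SE 0.27, limma adjusted p = 0.00733), with 4 of its 6 probe sets called and all 6 higher.

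In floxed versus Hoxa9-Meis1 leukemias 4 of these 15 rose, against 5.42% of all genes, and 0 fell, against 3.24% (8.66% in all). Slpi averaged 14.17 in floxed and 13.04 in Hoxa9-Meis1 leukemias (difference 1.13, SE 0.14, limma adjusted p = 0.00232). Wfdc21, a WAP-domain gene of neutrophils, had a difference of 1.61 (SE 0.42, limma adjusted p = 0.0465), Serpinb6a one of 1.16 (limma adjusted p = 0.0406) and Spink2 one of 0.97 (limma adjusted p = 0.0416). The calls of Wfdc21, Serpinb6a and Spink2 were lost in 10, 8 and 9 of 15 alternatives, among them leaving out floxed replicate 4 or Hoxa9-Meis1 replicate 1 or 2, with limma adjusted p of up to 0.147. In deleted versus Hoxa9-Meis1 leukemias 2 rose, against 8.90% of all genes, and 2 fell, against 6.03%. Those that rose were Wfdc21 (difference 3.30, limma adjusted p = 0.00133) and Timp2 (1.38, limma adjusted p = 0.00958). The 2 that fell there were Serpinb9, encoding a granzyme B inhibitor (-1.21, limma adjusted p = 0.0166, up to 0.0559 without deleted replicate 4 or 5), and the calpain inhibitor gene Cast (-0.55, limma adjusted p = 0.047, lost in 9 of 15 alternatives, up to 0.123). Serpinb9 was dim, with 4.68, 4.58 and 4.88 in deleted and 5.73, 6.62 and 5.41 in Hoxa9-Meis1 leukemias. The background gauge reached 4.71, so the size of its fall is uncertain.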

How the data were processed

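RNA of each of the 9 samples was read on 1 one-colour Affymetrix mouse array. The deposited values are intensities that the authors computed with RMA, per the submitters' processing notes, which state no version and no chip definition. The values, 4.60 to 32082, are on a linear scale, so log2(value + 1) was taken, a scale on which differences between dim values come out somewhat too small. Arrays have no depth; their number limits the precision. The labels do not tie arrays to separate mice, so the spread behind the p-values may be technical. The replicate numbers of Hoxa9-Meis1 arrays follow accession order.

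All 45101 probe sets were fitted in 1 group-means model over the 9 arrays with limma 3.58.1 in R 4.3.3 (lmFit and eBayes, two-sided, Benjamini-Hochberg over all probe sets); called means an adjusted p under 0.05. Errors called SE are those of the fitted difference. Genes came from the platform annotation, and genes outside the members were represented by their brightest probe set on average. The members and gene lists were chosen with earlier results of these data known. Named were all member probe sets, up to 4 called genes per pathway list and comparison with the largest difference, and the 3 nearest profiles per member. Values given for uncalled cathepsins, for the flanking and other cluster genes and for markers were chosen after values were seen. On simulated data of 45101 probe sets for deleted versus floxed leukemias, only 200 were changed, all with a mean level above 6. Of these, 46 of 100 changed by 1 (log2) and 89 of 100 changed by 2 were called. Among the probe sets left unchanged, 14 were called as well. Far more probe sets were called in the data, where the cutoff for an adjusted p under 0.05 is therefore looser. Recovery in the data was not measured. Promoters came from RefSeq and were aligned with Biopython 1.88. The deposited values carry no build. Alternatives were another pseudocount, quantile normalization of log2 values, the 2 compared groups alone, a replicate block, array weights, a filter on dim probe sets, 1 probe set per gene and each array left out.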

Additional observations from a re-analysis of the deposited data

How the results depend on the processing

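The largest moves among the members were those of Stfa2l1 without Hoxa9-Meis1 replicate 3, to 8.23 for deleted and 8.15 for floxed minus Hoxa9-Meis1 leukemias, against 6.82 and 6.75 with it. They are smaller than the SD of the Hoxa9-Meis1 group (2.43), which that array itself sets. With a pseudocount of 32 the differences of Stfa3 from Hoxa9-Meis1 leukemias were 7.41 for deleted and 6.55 for floxed leukemias. The list of further stefin and cystatin genes without Cstad was an alternative chosen after seeing the data. For Stfa2l1, deleted minus floxed lay between -0.27 and 0.27, so its sign is not settled. Of all probe sets, 2779 were called for deleted versus floxed leukemias, 4064 for floxed versus Hoxa9-Meis1 and 6770 for deleted versus Hoxa9-Meis1. With 1 probe set per gene, which tests fewer features, the counts were 1246, 1618 and 2821, and a fit of the deleted and floxed arrays alone gave 1735 for the first. Leaving out each array in turn gave 1344 (without floxed replicate 5) to 2718, 1725 (without Hoxa9-Meis1 replicate 1) to 4106, and 3864 (without Hoxa9-Meis1 replicate 1) to 7285. Among papain-like cathepsins and legumain, the single call for deleted versus floxed leukemias, Ctsl, fell to 0 with a pseudocount of 32 and with array weights, and to between 0 and 1 with 1 array left out. The same count was 0 to 1 for floxed versus Hoxa9-Meis1 and 1 to 3 for deleted versus Hoxa9-Meis1 leukemias. The cause was not tested. With the replicate number as a block 2965 probe sets were called for deleted versus floxed leukemias. Same-numbered arrays deviated from their group means with correlations of 0.0456, 0.0535 and 0.0317, and deleted replicate 4 correlated best with floxed replicate 5, so the numbers were not taken as pairs. Signals near the background of Y-linked probe sets limit what Csta1 and the Hoxa9-Meis1 stefin values can show.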
